A study of Mus musculus with 2 samples.

Results

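The transcripts of 9 receptor genes of the CD2, SLAM and CD5 families were compared between control and Eomes-overexpressing OT-I cells. The genes were taken by name, *Cd2*, *Cd48*, *Cd84*, *Ly9*, *Slamf1*, *Slamf6* and *Slamf7* for the CD2 and SLAM receptors and *Cd5* and *Cd6* for the scavenger-type receptors, and all 9 were found among the 14732 gene symbols listed for at least 1 library. *Cd244*, a further SLAM receptor, was not counted among them. OT-I cells are CD8+ T cells with a transgenic T cell receptor for the ovalbumin peptide SIINFEKL, here from spleen and lymph nodes of C57BL/6 OT-I mice aged 6 to 8 weeks. In both groups the cells were activated for 24 h with 2.5 ng/mL peptide and 10 U/mL IL-2, spun with retrovirus, sorted 48 h later for the human CD2 marker of the vector, and given the same peptide and IL-2 for another 3 days at 40000 cells per well. The groups differed in the insert of the virus, which was *Eomes*, a T-box transcription factor, in the overexpressing cells, while the control virus was empty. The human CD2 marker was therefore present in both groups, and the *Cd2* values are those listed under the symbol of the mouse gene. Whether any reads of the human marker were counted for mouse *Cd2* was not tested.

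Receptors of the CD2 and SLAM families are immunoglobulin-type surface proteins through which lymphocytes bind each other. CD2 and CD244 bind CD48, while most other SLAM receptors bind a copy of themselves on the neighbouring cell. Tyrosine motifs in the SLAM tails recruit small SH2 adaptors, above all SAP (encoded by *Sh2d1a*), or inhibitory phosphatases, so the same receptor can activate or restrain the cell. CD5 and CD6 are built of scavenger receptor cysteine-rich domains, sit close to the T cell receptor and tune its signal, CD5 mainly downward.

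A single library was sequenced for each group, so no test between the groups was possible and the differences have no replicate check. Levels are RPKM (reads scaled to transcript length and to the depth of the library, headed FPKM in the files) and can be compared between genes. Log2 ratios are Eomes-overexpressing over control. A gene was called lower or higher when it differed by more than 1.5-fold and expressed when it reached an RPKM of 1 in at least 1 library. From the steps between low values the depth was about 19370000 reads for control and 19470000 for Eomes-overexpressing cells. The reads approximated from this depth give exact binomial intervals (Clopper-Pearson, 95%), which hold for counting error alone and set the 2 libraries, not the conditions, against each other. *Eomes* itself had 2.47 RPKM in control and 129.6 RPKM with the *Eomes* virus. The CD8 T cell markers *Cd3d*, *Cd3e*, *Cd3g*, *Cd8a* and *Cd8b1* were at 145 to 264 in control and 99.1 to 196 in Eomes-overexpressing cells.

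The 3 receptors outside the SLAM gene cluster, *Cd2*, *Cd5* and *Cd6*, were all lower in Eomes-overexpressing OT-I cells, and so was *Slamf1* of the cluster. *Slamf6* was lower by less than 1.5-fold, while *Cd84*, *Slamf7*, *Ly9* and *Cd48* were higher by less than 1.5-fold. Thus 4 of the 9 receptors passed 1.5-fold downward, where 5.19% of the 9925 expressed genes did so, and 0 of 9 passed it upward, where 2.46% of expressed genes did. The median log2 ratio over the 9 genes was -0.38, compared with -0.0037 over all expressed genes. Being expressed, all 9 entered these counts.

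**Figure D1:**
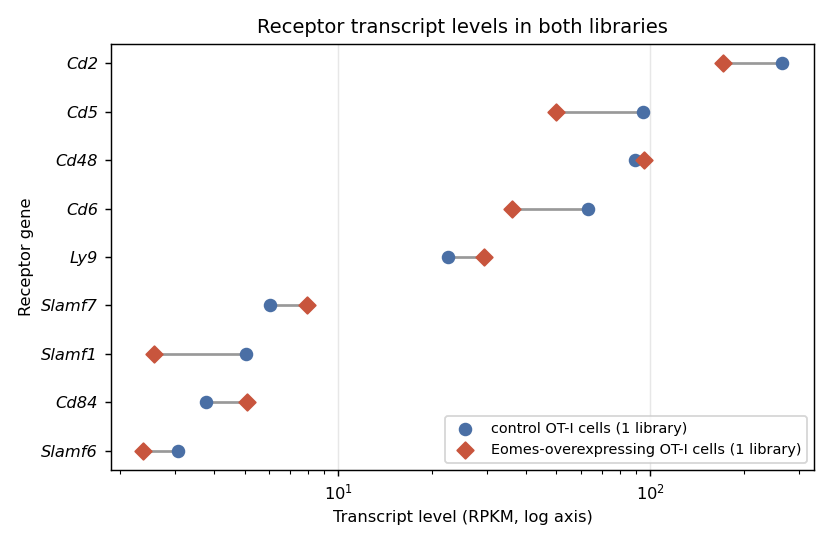
Transcript levels of the 9 receptor genes in RPKM on a log axis, with 1 circle for the control library and 1 diamond for the Eomes-overexpressing library, ordered by the control level. *Cd2*, *Cd5*, *Cd6*, *Slamf1* and *Slamf6* lie further left in Eomes-overexpressing cells, and *Cd48* changes place with *Cd5*.

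The promoters were examined because a T-box factor was overexpressed and 4 of the genes were called lower. RefSeq promoter sequences (GRCm38.p6, the assembly of mm10) were matched for 6 of the 9 genes, and not for *Cd2*, *Cd6* and *Ly9*. The 250 bases before the start of the promoter annotation were searched on both strands for the T-box letters GGTGTGA and the RUNX letters TGTGGT. These starts differ from the GENCODE gene spans given further below. The window of *Slamf7* (171649000 to 171649249, minus strand) lies inside its GENCODE span, which ends at 171653035. The windows of *Slamf1* and *Cd5* overlap the edges of their spans. Of 32851 mouse promoter windows of this length, 3.33% held the T-box letters and 14.0% the RUNX letters. The 4 windows given here, 5′ to 3′, are those of the genes with a match, *Cd48* and *Cd84*, and the matched genes that were called lower, *Slamf1* and *Cd5*. Capitals mark the matches.
Cd48 (chr1:171681742-171681991, plus strand): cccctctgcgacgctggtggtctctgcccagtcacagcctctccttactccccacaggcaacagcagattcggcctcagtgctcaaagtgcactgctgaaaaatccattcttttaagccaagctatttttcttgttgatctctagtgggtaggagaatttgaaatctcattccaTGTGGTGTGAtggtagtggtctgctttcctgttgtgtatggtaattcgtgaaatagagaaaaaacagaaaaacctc
Cd84 (chr1:171839447-171839696, plus strand): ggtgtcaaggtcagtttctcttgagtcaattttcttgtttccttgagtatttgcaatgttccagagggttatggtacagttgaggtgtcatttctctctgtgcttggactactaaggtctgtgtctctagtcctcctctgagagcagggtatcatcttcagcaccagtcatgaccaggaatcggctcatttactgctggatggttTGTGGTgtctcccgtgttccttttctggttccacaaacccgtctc
Slamf1 (chr1:171766882-171767131, plus strand): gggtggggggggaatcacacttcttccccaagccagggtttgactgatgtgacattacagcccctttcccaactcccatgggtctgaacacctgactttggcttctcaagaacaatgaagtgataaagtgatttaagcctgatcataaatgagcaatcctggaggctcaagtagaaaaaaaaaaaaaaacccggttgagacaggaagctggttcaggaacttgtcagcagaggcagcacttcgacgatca
Cd5 (chr19:10738975-10739224, minus strand): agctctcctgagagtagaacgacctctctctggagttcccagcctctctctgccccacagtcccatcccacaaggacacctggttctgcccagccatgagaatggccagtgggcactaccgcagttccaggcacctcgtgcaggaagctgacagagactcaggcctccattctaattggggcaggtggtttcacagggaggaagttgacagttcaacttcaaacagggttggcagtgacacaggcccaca

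In the window of *Cd48*, the T-box letters began 73 bases before the start and overlapped RUNX letters that began 76 bases before it. In the window of *Cd84*, the RUNX letters began 45 bases before the start. The windows of *Slamf1*, *Cd5*, *Slamf6* and *Slamf7* held neither. Thus the T-box letters occurred in 1 of 6 windows, that of *Cd48*. A match describes the letters only, and binding was not analysed here.

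*Cd2*, the adhesion and costimulatory receptor that gave the family its name, had the highest level of the 9 genes in both libraries. It reached 265 RPKM in control cells and 171 RPKM with Eomes overexpression, which is 64.4% of the control level. The log2 ratio of -0.64 rests on about 5926 and 3835 reads (interval -0.69 to -0.58), and the interval spans the 1.5-fold limit of -0.58. Among all listed genes, *Cd2* had rank 293 by level in control and rank 498 in Eomes-overexpressing cells.

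*Cd48* encodes the glycolipid-anchored ligand of CD2 and CD244 and is carried by most lymphocytes. It had 89.1 RPKM in control cells and 95.6 RPKM with Eomes overexpression, only slightly more (log2 ratio 0.10, interval 0.0093 to 0.19 from about 1818 and 1961 reads). The levels of receptor and ligand therefore lay closer together with Eomes overexpression. *Cd2* was at 2.98 times the level of *Cd48* in control and at 1.79 times in Eomes-overexpressing cells. *Cd48* was the third of the 9 genes by level in control and the second in Eomes-overexpressing cells.

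The scavenger-type receptors were also abundant, and *Cd5* was above *Cd48* in control but below it with Eomes overexpression. *Cd5*, an inhibitor of T cell receptor signaling, had 94.8 RPKM in control cells and 49.9 RPKM with Eomes overexpression, 1.90-fold less. Its log2 ratio was -0.93, from about 3796 and 2006 reads (interval -1.01 to -0.85). *Cd6*, whose ligand ALCAM is found on antigen-presenting cells, had 62.9 and 35.98 RPKM, 1.75-fold less. The log2 ratio of *Cd6* was -0.81 (interval -0.89 to -0.73 from about 3562 and 2047 reads). Both intervals lay below the 1.5-fold limit. *Cd5* and *Cd6* differed to a similar extent, and *Cd5* was at 1.51 times the level of *Cd6* in control and at 1.39 times in Eomes-overexpressing cells.

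Of the SLAM receptors other than *Cd48*, *Ly9* had the highest level in both libraries. *Ly9*, which encodes a receptor that binds itself and marks innate-like and memory lymphocytes, had 22.4 RPKM in control cells and 29.2 RPKM with Eomes overexpression (log2 ratio 0.38, interval 0.26 to 0.50). *Slamf7*, known from NK cells and cytotoxic T cells, was at 6.05 and 7.95 (log2 ratio 0.39, interval 0.22 to 0.57). *Cd84*, found on T cells, B cells and myeloid cells, was at 3.75 and 5.08 (log2 ratio 0.44). About 239 and 326 reads stood behind *Cd84*, and its interval of 0.19 to 0.68 spans 1.5-fold. These 3 genes were higher by nearly the same factor, 1.30-fold, 1.31-fold and 1.35-fold, all short of the threshold. After centring by GC content, *Cd84* was at a log2 ratio of 0.18, below *Ly9* at 0.39 and *Slamf7* at 0.34.

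*Slamf1*, the founding SLAM receptor, which binds itself and is induced by T cell activation, had the lowest log2 ratio of the 9 genes, with an interval that overlaps those of *Cd5* and *Cd6*. With a pseudocount of 1 it was at -0.76, after *Cd5* at -0.91 and *Cd6* at -0.79. It had 5.05 RPKM in control cells and 2.57 RPKM with Eomes overexpression, or 50.9% of the control level. The log2 ratio was -0.97 from about 263 and 135 reads, and the interval of -1.28 to -0.67 lay below the 1.5-fold limit. *Slamf6* encodes the receptor Ly108, which is used to mark progenitor-like exhausted T cells. It had the lowest level of the 9 genes in both libraries, at 3.07 RPKM in control cells and 2.36 RPKM with Eomes overexpression. Its log2 ratio of -0.38 was within 1.5-fold, and the interval of -0.74 to -0.017 from about 148 and 114 reads spans that limit.

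Within the cluster, *Slamf1* was lower relative to *Ly9* and, by less, to *Slamf6*. *Ly9* was at 4.43 times the level of *Slamf1* in control and at 11.4 times in Eomes-overexpressing cells. *Slamf6* was at 0.61 times the level of *Slamf1* in control and at 0.92 times in Eomes-overexpressing cells. Summed over the 6 receptors of the SLAM cluster, the level was 129 RPKM in control cells and 143 RPKM with Eomes overexpression. *Cd2*, *Cd5* and *Cd6* summed to 423 RPKM in control cells and 257 RPKM with Eomes overexpression. Therefore the lower sum over all 9 genes, 552 and 399, came from these 3 genes and not from the cluster.

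**Figure D2:**
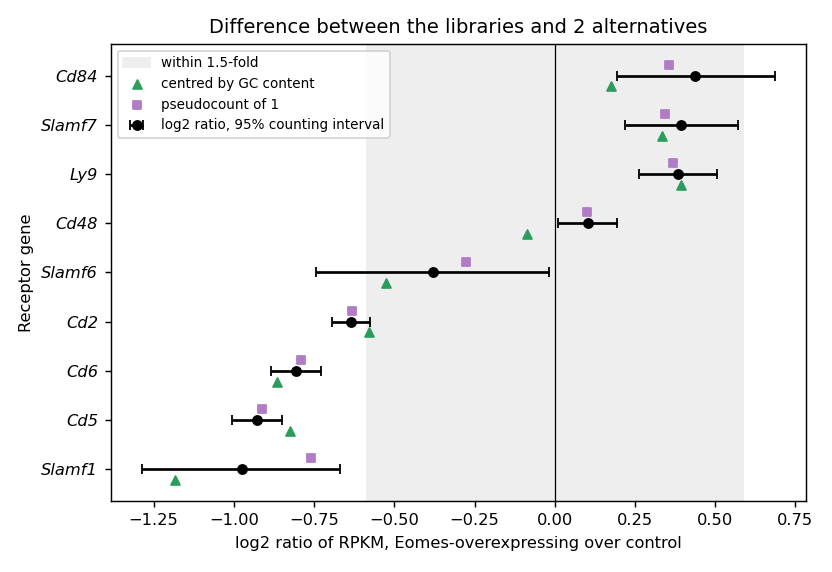
Log2 ratios of the 9 receptor genes (black points, Eomes-overexpressing over control) with exact 95% binomial intervals for counting error, beside the ratio after centring by GC content (triangles) and with a pseudocount of 1 (squares), and the range within 1.5-fold in gray. *Slamf1*, *Cd5* and *Cd6* lie left of the gray range under each of these settings, while *Cd2* enters it after centring by GC content.

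The spread of log2 ratios narrows with abundance, so the genes were also read against others of similar level, in classes chosen after their values were seen. Of 3799 genes that averaged 20 RPKM or more, 1.34% were called lower and 0.684% higher. *Cd2*, *Cd5*, *Cd6*, *Cd48* and *Ly9* belong to this class, and 3 of these 5 were called lower. The central 95% of log2 ratios in the class ran from -0.45 to 0.39, with *Cd2*, *Cd5* and *Cd6* below it and *Ly9* just inside its upper end. Among the 6126 expressed genes under a mean RPKM of 20, 7.57% were called lower and 3.56% higher. Of *Cd84*, *Slamf1*, *Slamf6* and *Slamf7* in this class, 1 was called lower, *Slamf1*, and its log2 ratio was still inside the central 95% of -1.04 to 0.68. When the 9925 expressed genes were ranked by log2 ratio, the highest first, *Cd84* was at position 520, *Slamf7* at 674 and *Ly9* at 726. *Cd2* was at position 9475, *Cd6* at 9635, *Cd5* at 9705 and *Slamf1* at 9737.

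**Figure D3:**
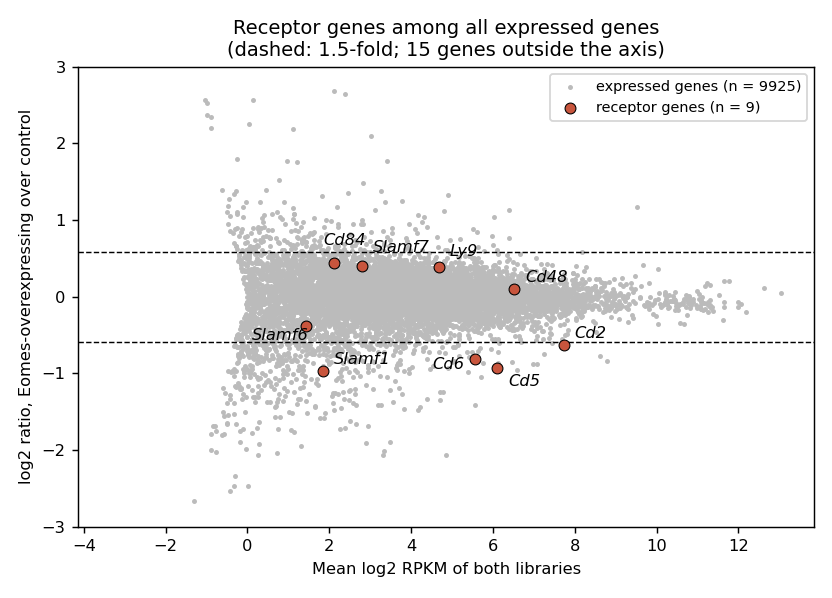
Log2 ratio (Eomes-overexpressing over control) against the mean log2 RPKM of both libraries, with expressed genes in gray, the 9 receptor genes in red and dashed lines at 1.5-fold. *Cd2*, *Cd5* and *Cd6* lie at the lower edge of the genes of similar abundance, whereas *Slamf1* lies among less abundant genes with wider spread, and 15 genes fall outside the axis limits of -3 and 3.

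Log2 ratios in these libraries also differ with the GC content of transcripts, which for the 9 genes ran from 39.3% (*Cd84*) to 56.8% (*Cd5*). After the ratios were centred on genes of similar GC content, *Cd2* was at -0.58 and no longer past 1.5-fold, so 3 of the 9 genes remained called. *Cd5* was at -0.83, *Cd6* at -0.86 and *Slamf1* at -1.18. *Slamf6* was at -0.53 instead of -0.38, still within 1.5-fold. Of the genes that were higher, *Ly9* and *Slamf7* were at 0.39 and 0.34, whereas *Cd84* was at 0.18, below its counting interval. *Cd48* changed sign, to -0.087.

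The 6 SLAM receptors lie in one cluster with *Cd244* on chromosome 1 of mm10, from 171559193 to 171953170 by the GENCODE vM21 annotation. The order along the chromosome is *Cd244*, *Ly9*, *Slamf7*, *Cd48*, *Slamf1*, *Cd84*, *Slamf6*. *Slamf1*, from 171767127 to 171801184 on the plus strand, was called lower. The genes on its sides, *Cd48* and *Cd84*, were higher by less than 1.5-fold. After centring by GC content *Cd48* was at -0.087 and *Cd84* at 0.18. *Cd244*, at the other end of the cluster, had 2.92 RPKM in control cells and 5.81 RPKM with Eomes overexpression (log2 ratio 0.99, interval 0.75 to 1.24). Hence the cluster held genes past 1.5-fold in both directions. *Ly9* lies on the opposite strand within the span of *Cd244*, but their annotated exons share 0 bases. An antisense gene shares 9.24% of the annotated exon bases of *Slamf7*, and no source used here says that reads were counted by strand.

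Within 500 kb of the cluster, 23 other protein-coding genes were expressed. For comparison, 5.19% of all expressed genes were called lower and 2.46% higher. The neighbours are described next. The median log2 ratio of these neighbours was -0.12, with 0 called lower and 1 called higher, *Fcer1g* at 1.25, which encodes a signaling chain of Fc and NK cell receptors.

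**Figure D4:**
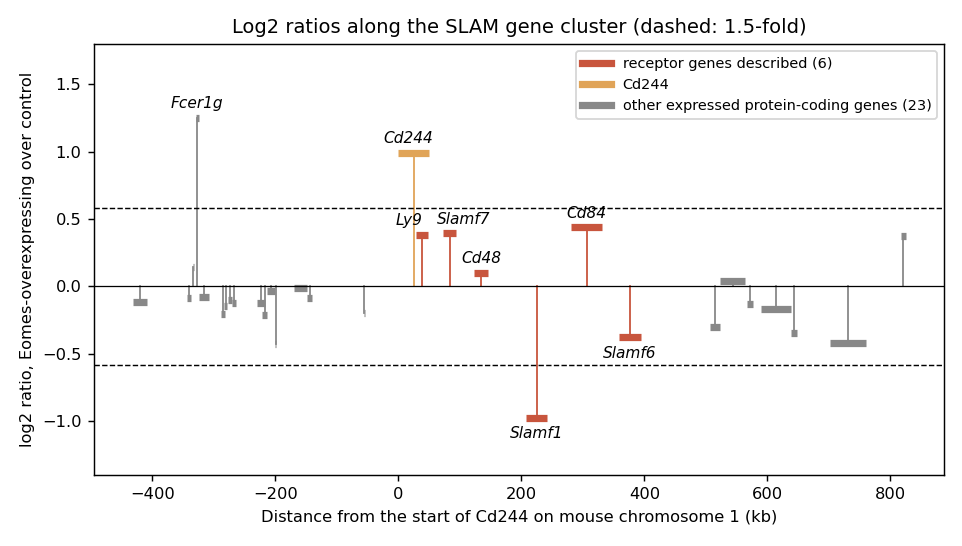
Log2 ratio of expressed protein-coding genes along the SLAM cluster, drawn as horizontal bars over the span of each gene by its distance in kb from the start of *Cd244*, with the 6 receptor genes in red, *Cd244* in orange, other genes in gray and dashed lines at 1.5-fold. *Slamf1* at -0.97 stands between *Cd48* and *Cd84*, which are above 0 but within 1.5-fold, and most genes outside the cluster lie near 0.

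*Cd5* (10717116 to 10739002) and *Cd6* (10789341 to 10830058) are neighbours on the minus strand of chromosome 19. Of 13 other expressed genes within 500 kb of the pair, 1 was called lower and 0 higher, and their median log2 ratio was -0.06. The gene called lower was *Slc15a3*, a transporter of histidine and peptides that lies next to *Cd6*, with 4.09 RPKM in control cells and 1.20 RPKM under Eomes overexpression. *Cd2* is on the minus strand of chromosome 3 (101275899 to 101287939), where 4 other genes within 500 kb were expressed. Of these, *Ptgfrn*, an immunoglobulin-type membrane protein, was called lower with a log2 ratio of -0.74, and the others were within 1.5-fold. Over all expressed genes, 5.19% were called lower and 2.46% higher. A link between these neighbours and the receptor genes was not tested.

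The partners of these receptors were read from lists of 26 genes, of which 23 were expressed, 1 was called lower and 2 higher. The shares over all expressed genes were 5.19% and 2.46%. Of 6 expressed adaptors and enzymes of SLAM tails, *Sh2d1a*, which encodes the adaptor SAP, had 94.8 RPKM in control cells and 52.1 RPKM with Eomes overexpression. Its log2 ratio was -0.86 (interval -0.99 to -0.74), and after centring by GC content it was -1.13, below that interval. *Sh2d1b1*, which encodes the related adaptor EAT-2 of NK cells and the partner of SLAMF7 there, was at 0.21 and 1.21. The log2 ratio of 2.53 rests on about 10 and 60 reads, with an interval of 1.56 to 3.64. SAP transcripts were therefore still far more abundant than those of EAT-2 in Eomes-overexpressing cells. The phosphatase genes *Ptpn6* and *Inpp5d* were at log2 ratios of -0.41 and 0.37, and *Fyn*, the kinase that SAP recruits, at -0.16, all within 1.5-fold.

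All 4 partners of the CD2 tail were within 1.5-fold, with a median log2 ratio of 0.22. *Pstpip1*, an adaptor that links CD2 to the cytoskeleton, was highest among them at 0.34. Likewise, 0 of 12 ligands and tail partners of CD5 and CD6 were called in either direction, and their median was -0.00034. With 5.19% of expressed genes called lower and 2.46% higher, counts of 0 in lists this short are near the background. The CD6 ligand gene *Alcam* had 11.2 RPKM in control cells and 10.9 RPKM with Eomes overexpression. *Lck*, the kinase that phosphorylates these tails, had a log2 ratio of -0.14 and *Lcp2*, a scaffold that binds CD6, of -0.32. *Sh2d2a*, another adaptor that binds CD6, was at 0.55, and at 0.66 and thus past 1.5-fold after centring by GC content. The only other SLAM receptor that was expressed was *Cd244*, while *Slamf8*, a myeloid receptor, was at 0.15 and 0.12 and *Slamf9* was not listed.

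**Figure D5:**
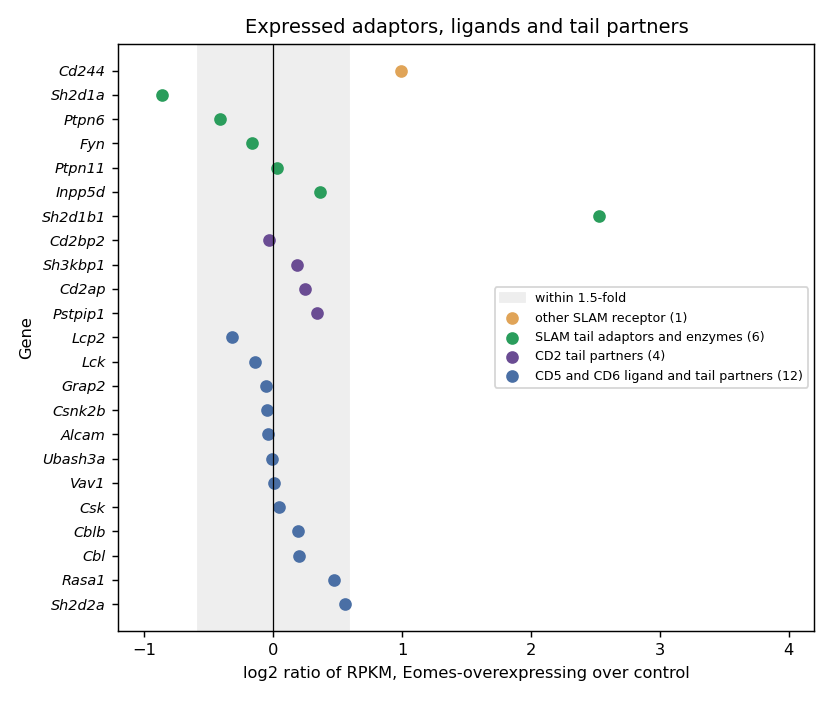
Log2 ratios (Eomes-overexpressing over control) of the 23 expressed genes of the partner lists, colored by list, with the range within 1.5-fold in gray. *Sh2d1a* at -0.86 lies left of the range, *Cd244* at 0.99 and *Sh2d1b1* at 2.53 lie right of it, and the partners of CD2, CD5 and CD6 lie inside it.

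SLAM receptors are also carried by NK, B and myeloid cells, so markers of other cells were examined. In bulk RNA, fewer cells with a transcript and less transcript per cell cannot be told apart. The sums in control and Eomes-overexpressing cells were 1.40 and 1.28 RPKM for 5 myeloid markers and 2.06 and 1.34 RPKM for 4 dendritic cell markers. Of the dendritic cell markers, *Xcr1* had 1.79 and 1.11 RPKM and was called lower, and the others had at most 0.18 RPKM. Of B cell markers, *Cd79b* had 2.79 and 1.56 RPKM and *Cd79a* 0.08 and 0.04 RPKM, and *Ms4a1* was not listed. For CD4 and regulatory T cells (2 genes), erythroid cells (3 genes) and platelets (3 genes) the sums were at most 0.61 RPKM. Of the myeloid markers, *Cd14* had 1.39 and 1.12 RPKM and *Itgam*, which NK cells and some activated T cells also carry, 0.01 and 0.16 RPKM, and *Lyz2*, *Csf1r* and *Adgre1* were not listed. The NK cell sum over 2 genes was 0.31 and 5.74, all of it *Klrb1c*, while *Ncr1* was not listed in either library. The part of cells with *Klrb1c* or *Itgam* in the levels of *Slamf7* and *Sh2d1b1* was not tested. All 5 CD8 T cell markers had log2 ratios under 0, from -0.88 (*Cd8a*) to -0.24 (*Cd3e*), and *Cd8a* alone was past 1.5-fold. After centring by GC content *Cd3g* was past it too, at -0.69 instead of -0.43. A link between these markers and the lower receptor genes was not tested, since each gene has a single ratio.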

How the data were processed

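Total RNA of control and Eomes-overexpressing OT-I cells was sequenced as 1 library each on an Illumina instrument. The authors filtered reads with SOAPnuke, mapped them with HISAT (HISAT2 in the submitters' processing notes) and Bowtie2 to mm10 and computed gene values with RSEM. The values deposited by the authors are FPKM, 1 per gene symbol, printed with 2 decimals from 0.01 upward, and are called RPKM in their methods. Annotation, tool versions and strand were not given in the sources used here.

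Symbols that appear as dates were dropped (20 for control and 19 for Eomes-overexpressing cells). A floor of 0.01 stood in for lower or missing values when log2 ratios were taken, with scipy 1.17.1, pandas 2.3.3 and numpy 2.4.6 under Python 3.11.15. Plots were drawn with matplotlib 3.10.9. Depth was taken as the number of reads at which values between 0.03 and 0.6 of short genes with a single RefSeq-linked transcript (under 1500 bases, 422 and 405 genes) came closest to whole reads. At that depth 73.9% and 74.3% of them were within 0.2 of a whole read, and the peak of this score was wide, from 17200000 to 20530000 reads in control and from 17420000 to 20520000 in Eomes-overexpressing cells. Reads of a gene were approximated from its RPKM, this depth and the median length of its RefSeq-linked transcripts (GENCODE vM21), so the intervals are approximate. Of the 50-base stretches of the longest *Slamf1* transcript, 3.11% also occur in other genes, and at most 0.266% for each of the other 8 receptor genes. Promoter windows of chromosome 18 were not used, and 1 of the markers is not reported here. GC content was available for 99.7% of expressed genes. Depth, intervals and 1.5-fold calls were tested on simulated whole reads with known transcript lengths. The simulation did not cover the other steps, nor gene values whose annotation is not known, as here.

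The receptor genes, the partner lists, the markers and the rule that names genes (every receptor, and partners or neighbours past 1.5-fold, with a few more partners named after their values were seen) were chosen with earlier results of these data known. Alternatives were pseudocounts of 0.1 and 1, no minimum RPKM or one of 5, a 2-fold threshold, scaling to summed values, to the median or by a trimmed mean, and centring in 20 bins of GC content.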

Additional observations from a re-analysis of the deposited data

How the results depend on the processing

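Of 54 alternative log2 ratios of the 9 receptor genes, 51 lay within the counting interval and 0 of the called genes changed direction. The other 3 came from centring by GC content (*Cd5* at -0.83, *Cd84* at 0.18 and *Cd48* at -0.087), which also left 3 of the 4 called genes past 1.5-fold. Scaling adds the same amount to every gene, at most 0.032 in log2 units, so it could hardly move a gene out of its interval. With a 2-fold threshold 0 of the 9 genes were called lower. The median over the receptor genes ran from -0.53 (centred by GC content) to -0.27 (minimum RPKM of 5). Over all expressed genes, 175 were lower and 69 higher with the 2-fold threshold, 285 and 118 with a pseudocount of 1, 213 and 95 with a minimum RPKM of 5, and 2088 and 1356 with no minimum. Scaling did not change the number of receptor genes called. No paired analysis was possible because each group has a single library, and for the same reason no library could be left out. Depth limits *Slamf6*, *Cd84* and *Slamf1* most, and the interval of *Sh2d1b1* rests on about 10 reads in control.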
